A study of Mus musculus with 12 samples.

Results

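The clustered histone genes are the 69 genes, of 55228 in the table, whose symbols begin with Hist1h, Hist2h, Hist3h or Hist4h, with symbols marked as pseudogenes by -ps left out. They hold 6 genes for the linker histone H1 and, for the core histones, 20 for H2A, 18 for H2B, 12 for H3 and 13 for H4. Their RNA was measured in regulatory T cells (Tregs), CD4+ T cells that restrain immune responses and depend on the cytokine IL-2, from NOD mice that carry a GFP reporter of Foxp3. By the labels, CD4+ cells of the lymph nodes of 16 mice were pooled, divided into 3 parts that were sorted as Foxp3.GFP+CD25+ and activated separately, and then divided among retroviral vectors that all carry the surface reporter Thy1.1. The 3 libraries of a group are therefore cultures of 1 pool and not separate animals, and a p-value measures the spread between such cultures.

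There were 4 groups of 3 libraries. EV no IL-2 cells carried the empty vector and were washed free of IL-2 on day 4, EV+IL-2 cells carried the same vector and were kept in IL-2, and 1G12t and 3A10t cells carried the orthogonal IL-2 variant 1G12 or 3A10 tethered to the orthogonal IL-2 receptor β chain and were kept without IL-2 after the wash. All were transduced on day 2 and sorted as Thy1.1+ cells on day 9, 5 days after the wash. Levels are given as scaled TPM, a measure of transcript abundance that is divided by the annotated transcript length. Some of the annotated transcripts end at the stop codon, so levels of different genes are compared with caution. TPM keep no record of sequencing depth, and each mean stands with the SD of 3 libraries.

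Histones package DNA into nucleosomes, with H2A, H2B, H3 and H4 in the core and H1 on the linker DNA. The clustered genes are replication-dependent: they are transcribed mainly in S phase, when new DNA has to be packaged, and their mRNAs end in a conserved stem-loop instead of a poly(A) tail. Some of them can also give polyadenylated transcripts that read past the stem-loop. The libraries were primed with oligo-dT, so the values refer to the histone RNA that was primed in this way, and the share of all histone RNA that this represents was not measured.

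All 69 genes were found in GENCODE M21 on GRCm38. On chromosome 13, 24 genes of the Hist1 cluster lie between positions 21715763 and 22043676 and 31 between 23531050 and 23934851. The 10 Hist2 genes lie on chromosome 3 between 96219865 and 96270132, and the Hist3 genes Hist3h2ba and Hist3h2a lie 5151 bases apart on chromosome 11. The 1 Hist4 gene, Hist4h4, lies apart from these clusters. Hist1h2al stands outside the Hist1 cluster, at chr13:51202727-51203065, and is annotated as a processed pseudogene. Hist1h2aj is annotated as an unprocessed pseudogene and the other 67 as protein coding. In 64 of the genes the longest model has a single exon.

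A stem-loop with a perfect stem of 6 base pairs, beginning with GG and ending with T, and a loop of 4 bases beginning with T was searched for. It was found in the longest model of 45 members and, with any model counted, in 187 of 55450 genes in all (0.337%). The annotated transcripts differ in what follows it. In 22 the longest model ends within 100 bases after the stem-loop and in 23 it runs on further. Another 13 hold no base after the stop codon, so that no stem-loop could be found in them. A further 9 hold bases after the stop codon, as few as 1, and no match. The 2 pseudogenes have no annotated 3′ UTR and no match. The sites of the members that the results turn on are shown here because they were almost the same in sequence while the transcripts around them were not. The strand is that of the mRNA and the capitals mark the stem:
Hist1h2ap: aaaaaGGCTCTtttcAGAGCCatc
Hist1h2ad: acaaaGGCTCTtttcAGAGCCatcca
Hist1h2ae: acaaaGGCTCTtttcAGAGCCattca
Hist1h2ag: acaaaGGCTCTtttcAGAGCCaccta
Hist2h2ac: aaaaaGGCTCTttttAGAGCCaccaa
Hist1h1c: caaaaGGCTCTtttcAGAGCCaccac
Hist3h2a: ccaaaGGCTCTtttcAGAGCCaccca
Hist3h2ba: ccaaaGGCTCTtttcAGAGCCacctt
Hist1h4i: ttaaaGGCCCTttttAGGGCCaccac

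The Hist1h2ap model ends 3 bases after its stem-loop, that of Hist1h2ag 23 bases and that of Hist1h2ad 42 bases after it. The Hist1h2ae model runs on for 151 bases, that of Hist1h1c for 840, that of Hist3h2a for 1643 and that of Hist3h2ba for 169, and each of these 4 holds a poly(A) signal (AATAAA or ATTAAA) in its last 50 bases. The H4 gene Hist1h4i, shown for contrast, has GGCCCT where the others have GGCTCT in the first arm of the stem. Hist1h1b, the H1 gene with the largest difference between groups, has a model with no base after the stop codon.

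The start regions also shared sequence. A window of 300 bases, from 250 before to 50 after the RefSeq start, was given for 62 members (63 windows), and motifs were searched on both strands. CCAAT was found in 85.7% of the members' windows and in 37.4% of all 32851 RefSeq windows. It was present in each window of the H1, H2A, H2B and H3 genes and in 3 of the 12 of the H4 genes. The TATA box letters TATAAA were found in 55.6% against 13.6%, and the octamer ATTTGCAT in 22.2% against 1.74%, in H2A and H2B genes alone. No motif is contained in another, and a match is a description and not a binding site.

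The region before the start of 4 members with differing levels is shown, with the motif letters on either strand in capitals. The bases are from RefSeq on GRCm38.p6, read along the strand of the gene, and those inside the GENCODE model were left out. The region of Hist1h1b is chr13:21780626-21780775 on the minus strand, that of Hist1h2ag chr13:22042950-22043099 on the minus strand, that of Hist1h2ap chr13:21833508-21833625 on the minus strand and that of Hist3h2ba chr11:58948761-58948910 on the plus strand:
Hist1h1b: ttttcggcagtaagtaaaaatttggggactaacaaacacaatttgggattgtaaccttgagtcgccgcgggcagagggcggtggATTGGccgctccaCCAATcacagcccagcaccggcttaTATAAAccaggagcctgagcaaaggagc
Hist1h2ag: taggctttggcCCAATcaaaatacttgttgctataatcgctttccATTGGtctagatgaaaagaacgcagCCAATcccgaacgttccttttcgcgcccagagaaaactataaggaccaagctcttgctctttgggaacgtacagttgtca
Hist1h2ap: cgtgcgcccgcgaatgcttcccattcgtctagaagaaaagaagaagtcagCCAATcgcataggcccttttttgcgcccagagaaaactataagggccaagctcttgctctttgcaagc
Hist3h2ba: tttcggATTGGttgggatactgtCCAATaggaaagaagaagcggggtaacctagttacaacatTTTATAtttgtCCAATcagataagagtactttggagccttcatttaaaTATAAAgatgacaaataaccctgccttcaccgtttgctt

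Many members are so alike that 50-base reads cannot tell them apart, and the values of such genes are uncertain one by one. Of the windows of 50 bases in a member's models, a median of 45.0% occurred in no other gene, and 36 members had under 50% of such windows. Hist1h1b had only windows of its own and Hist1h1c had 91.5%, whereas Hist1h2ap had 6.93% and shared 93.1% with Hist1h2ao. Short antisense genes are annotated opposite most H2A members, and the sources used here do not state that strand was used in counting. Hist3h2a overlaps Trim17 on the same strand, which shares 31.5% of its windows.

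Most members were barely detected. Of the 69, 34 had a TPM above 0 in all 12 libraries and 2, Hist1h4m and Hist2h3c1, were listed at 0 in each. The filter for testing, a 12-library mean of no less than 1 TPM, was passed by 25 members: 3 of H1, 9 of H2A, 6 of H2B, 1 of H3 and 6 of H4. The filter used TPM before scaling. In scaled TPM, Hist1h2ag had a mean of 0.774 and Hist1h3e of 0.990 over the 9 libraries without EV+IL-2. Hist1h2ag thus passed through EV+IL-2, and Hist1h3e lay at the limit without that group. The 44 members not tested had means of at most 0.788 TPM, and their summed level was 12.1 ± 5.46 TPM (SD, n = 3) in EV no IL-2 cells and 19.7 ± 0.269 in EV+IL-2 cells. Only 8 members had a mean of at least 5 TPM, and they held 82.0% of the members' summed TPM.

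Across all members, the sum was 265, 224.5 and 212 TPM in the EV no IL-2 libraries, 426, 464 and 415 in those of EV+IL-2, 239.6, 263 and 229 in those of 1G12t and 269, 386 and 287.5 in those of 3A10t. All 3 EV+IL-2 libraries lay above the other 9, the 3A10t libraries exceeded each EV no IL-2 library with replicate 2 well above the other two, and those of 1G12t overlapped EV no IL-2. The mean sum in EV+IL-2 was 1.86 times that in EV no IL-2. Hist1h2ap alone held 21.2% of the sum in EV no IL-2 cells and 46.5% in EV+IL-2 cells, and without it the ratio was 1.26. The libraries are of bulk RNA, so a higher level may be more cells with the transcript or more transcript per cell, which cannot be told apart.

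By class, most of the difference in TPM between EV+IL-2 and EV no IL-2 lay in H2A and H1. Summed H2A was 150.4 ± 17.6 TPM in EV no IL-2 cells, 323 ± 26.4 in EV+IL-2 cells, 160 ± 11.4 for 1G12t and 209 ± 46.2 for 3A10t (SD, n = 3 each). For H1 the sums were 39.7 ± 5.56, 62.1 ± 2.86, 36.0 ± 5.80 and 50.6 ± 7.20 in the same order. All EV+IL-2 libraries exceeded each EV no IL-2 library in both classes, and in H3, which was low throughout (3.40 ± 1.24 against 5.87 ± 0.860). For H2B the sums were 27.2 ± 4.09 in EV no IL-2 cells and 28.9 ± 1.82 in EV+IL-2 cells, and for H4 13.3 ± 1.12 and 15.1 ± 1.23. In both classes EV+IL-2 overlapped EV no IL-2. For H2B, H3 and H4 the sums were 29.8 ± 2.65, 4.64 ± 0.992 and 14.0 ± 1.15 in 1G12t cells. They were 32.7 ± 7.61, 4.78 ± 1.80 and 16.7 ± 1.57 in 3A10t cells. Of these only H4 in 3A10t lay wholly above EV no IL-2. The 13 H2A genes of the Hist1 cluster other than Hist1h2ap and Hist1h2al, with a sum of 5.61 ± 2.41 TPM in EV no IL-2 cells and 15.9 ± 0.163 in EV+IL-2 cells, also lay apart. The sums are described here and were not tested.

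**Figure D1:**
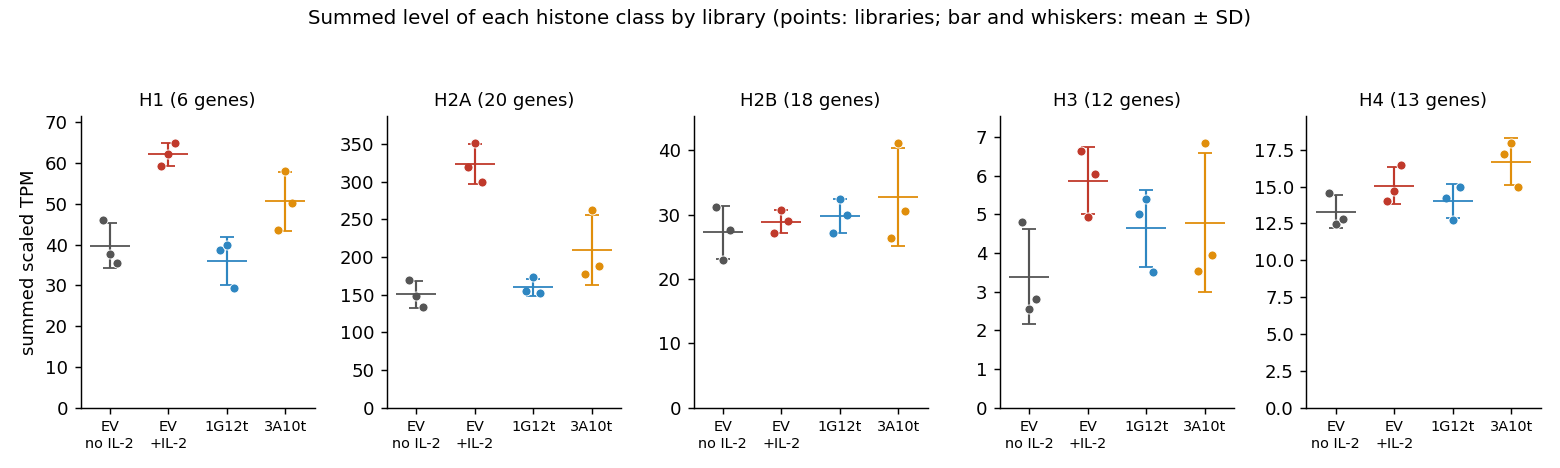
Summed scaled TPM of the clustered histone genes of each class (y axis, own scale per panel) in the 4 groups (x axis), with a point for each library and the mean ± SD. The EV+IL-2 points stand above the EV no IL-2 points in H1, H2A and H3 and overlap them in H2B and H4.

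More members passed the test with soluble IL-2 than with either tethered construct. In EV+IL-2 against EV no IL-2, 7 of the 25 members tested rose and 2 fell (limma, adjusted p under 0.05, Benjamini-Hochberg over 15043 genes), where 8.17% of all genes tested rose and 5.13% fell. The groups did not overlap in 8 members that were higher and 3 that were lower, against 19.6% and 20.0% of all genes. The median log2 fold change was 0.23 over the members tested and −0.01 over all genes tested. Those that rose were the H1 genes Hist1h1b and Hist1h1c and the H2A genes Hist1h2ap, Hist1h2ag, Hist1h2ae, Hist1h2ad and Hist2h2ac. Those that fell were both members of the Hist3 cluster. Hist1h2ag could be tested only because of its level in EV+IL-2, and Hist1h3e lay at the limit of the filter without that group. Without this pair 6 of 23 members rose, 2 fell and the median was 0.21. The count of 9 members became 5 when replicate 2 of either group or replicate 3 of EV no IL-2 was left out and 4 when replicate 1 of EV+IL-2 was, all of them higher.

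Hist1h2ap, the H2A gene with the highest level of all members, was at 55.8, 50.6 and 42.3 TPM in EV no IL-2 cells, at 208, 219 and 181 in EV+IL-2 cells, at 63.4, 66.0 and 56.3 in 1G12t cells and at 71.8, 126 and 85.2 in 3A10t cells. EV+IL-2 was far above every other library, and each library of 1G12t and of 3A10t was above each of EV no IL-2. Its mean was 202 ± 19.3 TPM in EV+IL-2 against 49.5 ± 6.79 (SD, n = 3 each), a log2 fold change of 2.01 with a standard error (SE) of 0.18 (limma, adjusted p = 4.2e-05). The value belongs to the sequence it shares with Hist1h2ao: the sum of both was 203 ± 19.4 and 49.8 ± 7.13 TPM.

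Hist1h1b, an H1 gene whose windows are all its own, was at 2.13, 1.53 and 1.24 TPM in EV no IL-2 cells, at 9.58, 9.55 and 8.23 in EV+IL-2 cells, at 2.23, 1.86 and 1.11 in 1G12t cells and at 2.28, 3.40 and 2.62 in 3A10t cells. EV+IL-2 again stood clear of the other 9 libraries, and its log2 fold change over EV no IL-2 was 1.95 (SE 0.19, limma, adjusted p = 6.8e-05). Hist1h1c, the most abundant H1 gene here, was at 37.0, 32.4 and 29.7 TPM in EV no IL-2 cells and at 44.8, 46.6 and 49.8 in EV+IL-2. The groups did not overlap, and the log2 fold change was 0.50 (SE 0.14, limma, adjusted p = 0.0327). This call was lost without EV no IL-2 replicate 2 or 3 and without each of the EV+IL-2 libraries in turn, with a highest adjusted p of 0.1291. In 1G12t Hist1h1c was at 30.7, 32.7 and 23.9 TPM and in 3A10t at 37.0, 48.4 and 43.1, so that 3A10t stood above 1G12t in each library.

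Other H2A genes of the Hist1 cluster were low, and Hist1h2ad and Hist1h2ae among them rose. Hist1h2ag was at 1.07, 0 and 0.372 TPM in EV no IL-2 cells and at 3.52, 3.20 and 3.65 in EV+IL-2. Hist1h2ae was at 2.00, 1.72 and 0.929 TPM and at 3.93, 5.22 and 4.15. Hist1h2ad was at 0.816, 1.44 and 1.47 TPM and at 3.75, 2.53 and 2.56. In each of these 3 genes all EV+IL-2 libraries exceeded each EV no IL-2 library. The log2 fold change was 1.11 for Hist1h2ae (SE 0.20, limma, adjusted p = 0.0045) and 0.82 for Hist1h2ad (SE 0.19, limma, adjusted p = 0.0179). Only 21.1% of the windows of Hist1h2ag, 32.9% of those of Hist1h2ad and 56.8% of those of Hist1h2ae occurred in no other gene. Hist1h2ag shared 71.8% with Hist1h2ao, so these values are uncertain gene by gene. The filter let Hist1h2ag through by the group in which it was high, so its call among the genes tested is no support. With no filter its log2 fold change was 1.65 (SE 0.23, limma, adjusted p = 0.0028). In that fit the median over all 50219 genes was −0.103, against −0.014 with the filter. It uses the same libraries, so this p is no separate support. The 10 Hist1 H2A genes that were not tested were mixed, with a higher mean in EV+IL-2 than in EV no IL-2 in 7 and a lower one in 3, namely Hist1h2aa, Hist1h2af and Hist1h2ao. Hist1h2ad lost its call when replicate 1 of EV no IL-2 or of EV+IL-2 was left out, with a highest adjusted p of 0.0847.

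Hist2h2ac, an H2A gene of the Hist2 cluster, was at 4.62, 4.26 and 3.12 TPM in EV no IL-2 cells, at 6.52, 6.02 and 5.03 in EV+IL-2 cells, at 2.84, 3.25 and 2.73 in 1G12t cells and at 4.01, 4.30 and 4.43 in 3A10t cells. EV+IL-2 was above all other libraries, 1G12t was lowest on average, and the log2 fold change of EV+IL-2 over EV no IL-2 was 0.46 (SE 0.14, limma, adjusted p = 0.0474), a call that 6 of 16 alternatives kept. It was lost when replicate 2 or 3 of EV no IL-2 or replicate 1 or 2 of EV+IL-2 was left out, and the highest adjusted p was 0.1755.

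The Hist3 genes went the other way. Hist3h2a, which encodes an H2A, was at 14.1, 14.0 and 13.4 TPM in EV no IL-2 cells, at 10.0, 10.4 and 10.9 in EV+IL-2 cells, at 12.4, 13.1 and 12.4 in 1G12t cells and at 12.5, 17.1 and 12.8 in 3A10t cells. Hist3h2ba, which encodes an H2B, was at 6.73, 5.96 and 7.64 TPM, at 3.58, 4.38 and 4.95, at 7.08, 6.94 and 10.5 and at 9.05, 8.83 and 8.45 in the same order. In both genes the EV+IL-2 libraries were the lowest of the 12. Hist3h2a fell by 0.37 (SE 0.11, adjusted p = 0.0435) and Hist3h2ba by 0.56 (SE 0.15, adjusted p = 0.0371) on the log2 scale in EV+IL-2 against EV no IL-2 (limma). These calls were weak: Hist3h2a kept its call in 4 of 17 alternatives and lost it whichever of the 6 libraries was left out (highest adjusted p 0.1438). Hist3h2ba kept its call in 9 of 17 and lost it without each of the EV no IL-2 libraries in turn and without EV+IL-2 replicate 1 or 2 (highest adjusted p 0.1484).

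**Figure D2:**
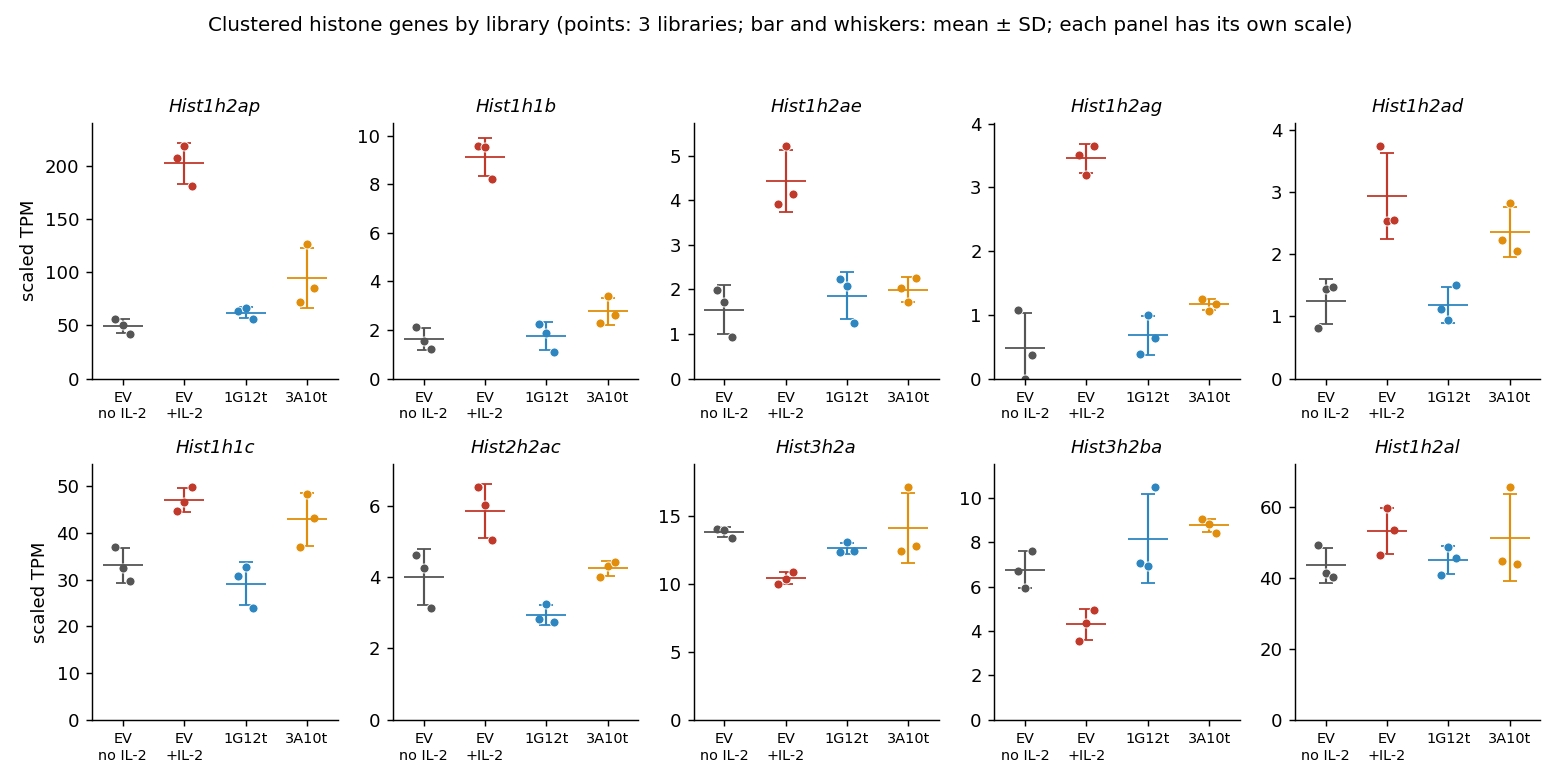
Scaled TPM (y axis, own scale per panel) of 10 clustered histone genes in the 4 groups (x axis), with a point for each library and the mean ± SD. The EV+IL-2 points are the highest in Hist1h2ap, Hist1h1b, Hist1h2ae, Hist1h2ag and Hist2h2ac and the lowest in Hist3h2a and Hist3h2ba.

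Other abundant members did not pass the test. Hist1h2al, the gene annotated as a pseudogene outside the cluster, was at 49.3, 41.3 and 40.2 TPM in EV no IL-2 cells and at 46.5, 59.7 and 53.7 in EV+IL-2, and the groups overlapped (log2 fold change 0.28, SE 0.16, limma, adjusted p = 0.309). It shared 65.5% of its windows with Gm20632, a gene that overlaps Hist2h2aa2. Hist2h2bb, an H2B gene whose windows are all shared with overlapping genes, was at 10.8, 7.17 and 8.29 TPM and at 8.42, 10.6 and 9.46 in the same groups, and these overlapped too.

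Hist2h2aa1 and Hist2h2aa2 lie head to head in the Hist2 cluster and had no window of their own. In 3A10t replicates 1, 2 and 3 Hist2h2aa1 was at 12.9, 40.5 and 25.6 TPM, while Hist2h2aa2 was at 24.6, 0 and 9.00 TPM. Where one was high the other was low, and their sum was far steadier, at 37.4, 40.5 and 34.6 TPM. Over the 12 libraries the sum ranged from 28.0 to 40.5 TPM, with means of 33.8 ± 3.43 in EV no IL-2 cells, 35.0 ± 4.67 in EV+IL-2 cells, 30.3 ± 2.41 in 1G12t cells and 37.5 ± 2.95 in 3A10t cells, and each of the other groups overlapped EV no IL-2. Alone, their log2 fold changes in EV+IL-2 were 0.21 (SE 0.32) and −0.44 (SE 0.96), and neither passed the test.

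**Figure D3:**
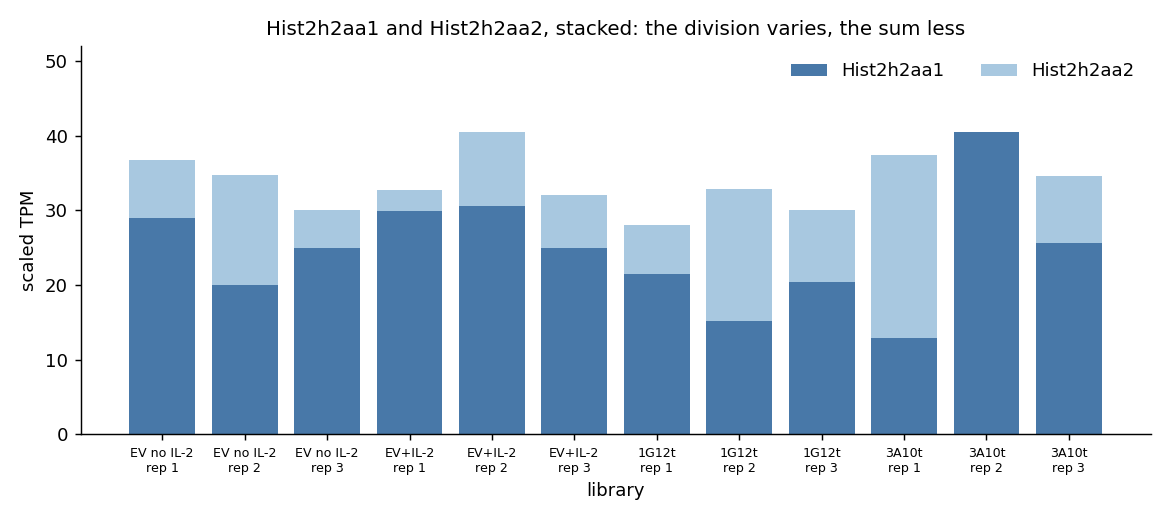
Stacked scaled TPM (y axis) of Hist2h2aa1 (dark) and Hist2h2aa2 (light) in each of the 12 libraries (x axis). The division between them varied from library to library, up to 0 for Hist2h2aa2 in 3A10t replicate 2, while the sum stayed between 28.0 and 40.5 TPM.

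The members called in EV+IL-2 are counted here by annotation. Of the 8 members tested whose model ends within 100 bases after the stem-loop, 4 rose and 0 fell (limma), and of the 10 whose model runs on further 2 rose and 2 fell. Among the 9 tested members with a poly(A) signal near the end of the model 2 rose and 2 fell, and among the 16 without it 5 rose and 0 fell. By position, 6 of the 17 tested Hist1 members rose and 0 fell, 1 of 6 Hist2 members rose and 0 fell, and 2 of 2 Hist3 members fell. Hist1h2ag is among those that rose in the counts of short models, of models without the signal and of Hist1. These counts are small and were not compared by a test, and among all genes tested 8.17% rose and 5.13% fell. The 4 short models that rose were those of Hist1h2ap, Hist1h2ag, Hist1h2ad and Hist2h2ac. Of their windows 6.93%, 21.1%, 32.9% and 45.0% occurred in no other gene, so these values are uncertain gene by gene. None of the 6 tested H4 members or of the 5 H2B members other than Hist3h2ba passed the threshold in EV+IL-2.

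The next comparison asks what the tethered 3A10 construct did without IL-2. In 3A10t against EV no IL-2, Hist1h2ap rose and no other member passed the threshold (limma), where 0.452% of all genes tested rose and 1.60% fell. At an unadjusted p under 0.05 there were 5 members (20.0%), against 26.0% of all genes tested. The groups did not overlap in 9 members, all of them higher, against 13.3% of all genes that were higher and 12.1% that were lower. The members' median log2 fold change was 0.21, and that of all genes tested was 0.03. Both comparisons use the same EV no IL-2 libraries, so they are not independent.

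For Hist1h2ap in 3A10t the log2 fold change over EV no IL-2 was 0.89 (SE 0.18, limma, adjusted p = 0.0408), with means of 94.5 ± 28.4 and 49.5 ± 6.79 TPM. Replicate 2 was the highest of the 3, and without it the log2 fold change was 0.66 and the adjusted p 0.0852. The call was also lost without EV no IL-2 replicate 1, 2 or 3 and without 3A10t replicate 3, with adjusted p of 0.0699, 0.1495, 0.1616 and 0.1117, and without 3A10t replicate 1 there were 2 calls among the members. Over the 17 alternatives its direction stayed the same, the adjusted p ranged from 0.0029 to 0.2626, and 9 kept the call. Hist1h1b was 0.52 higher on the log2 scale (SE 0.19, adjusted p = 0.13), Hist1h2ad 0.59 (SE 0.19, adjusted p = 0.108) and Hist1h1c 0.36 (SE 0.14, adjusted p = 0.136), and none of these passed (limma).

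3A10t was also compared with EV+IL-2. The members called higher or lower in EV+IL-2 were found with the same EV+IL-2 libraries. The opposite direction of these members in 3A10t, also of the Hist3 genes, is therefore partly set by that choice. At an unadjusted p under 0.05 there were 7 members (28.0%), against 37.1% of all genes tested. In 3A10t against EV+IL-2, 4 members were lower and 2 were higher (limma), which is 24% of the members tested. Among all genes tested 13.0% were lower and 10.3% higher, a similar share. Without Hist1h2ag and Hist1h3e 3 members were lower and 2 higher. Hist1h1b was lower by a log2 fold change of −1.43 (SE 0.19, adjusted p = 5.7e-04), Hist1h2ap by −1.13 (SE 0.18, adjusted p = 0.0019) and Hist1h2ae by −0.86 (SE 0.20, adjusted p = 0.0134). The call on Hist1h2ae was lost without EV+IL-2 replicate 2 (adjusted p = 0.0533). The fourth, Hist1h2ag, passed the filter only through EV+IL-2, and with no filter its log2 fold change was −1.04 (SE 0.23, limma, adjusted p = 0.0099). In that fit 15888 of 50219 genes were called, and the median over all genes was 0.197, against 0 with the filter. This p is therefore no separate support. With the filter the call on Hist1h2ag was lost without EV+IL-2 replicate 1 or 3, and over its alternatives the highest adjusted p was 0.1426. The Hist3 genes were the 2 that were higher, Hist3h2ba by 0.89 (SE 0.15, adjusted p = 0.0027) and Hist3h2a by 0.39 (SE 0.11, adjusted p = 0.025), the latter lost without EV+IL-2 replicate 1 or 2, with a highest adjusted p of 0.1377. Hist1h1c and Hist1h2ad, which were higher in EV+IL-2 than in EV no IL-2, had log2 fold changes of −0.14 (SE 0.14) and −0.22 (SE 0.19) here and did not pass.

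The 1G12t cells showed no call. In 1G12t against EV no IL-2, 0 of 25 members passed the threshold (limma), while among all genes 0.0133% rose and 0.00665% fell. At an unadjusted p under 0.05 there was 1 member, Hist2h2ac (4.00%), against 7.04% of all genes tested. Hist1h2ap was the 1 member with all 1G12t libraries above EV no IL-2 and Hist3h2a the 1 with all below, against 8.68% and 7.80% of all genes. Hist1h2ap had a mean of 61.9 ± 4.99 TPM and a log2 fold change of 0.32 (SE 0.18, adjusted p = 0.741), Hist1h1b 0.05 (SE 0.19, adjusted p = 0.968), and Hist2h2ac −0.33 (SE 0.14, adjusted p = 0.703). The members' median was 0.08 and that of all genes tested was −0.0045.

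A direct comparison of the constructs gave 1 call. In 3A10t against 1G12t, Hist1h1c was higher by 0.55 on the log2 scale (SE 0.14, limma, adjusted p = 0.0493), with means of 42.9 ± 5.68 and 29.1 ± 4.63 TPM, where 1.30% of all genes tested were higher and 2.96% lower. Its adjusted p reached 0.2808 among 17 alternatives, of which 4 kept the call, and it was lost without any library other than 3A10t replicate 1, without which there were 3 calls, all higher. Hist1h2ap was 0.56 higher (SE 0.18, adjusted p = 0.0814), Hist2h2ac 0.42 (SE 0.14, adjusted p = 0.0829) and Hist1h2ad 0.62 (SE 0.19, adjusted p = 0.0762). None of these 3 genes passed. At an unadjusted p under 0.05 there were 6 members (24.0%), against 29.7% of all genes tested.

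**Figure D4:**
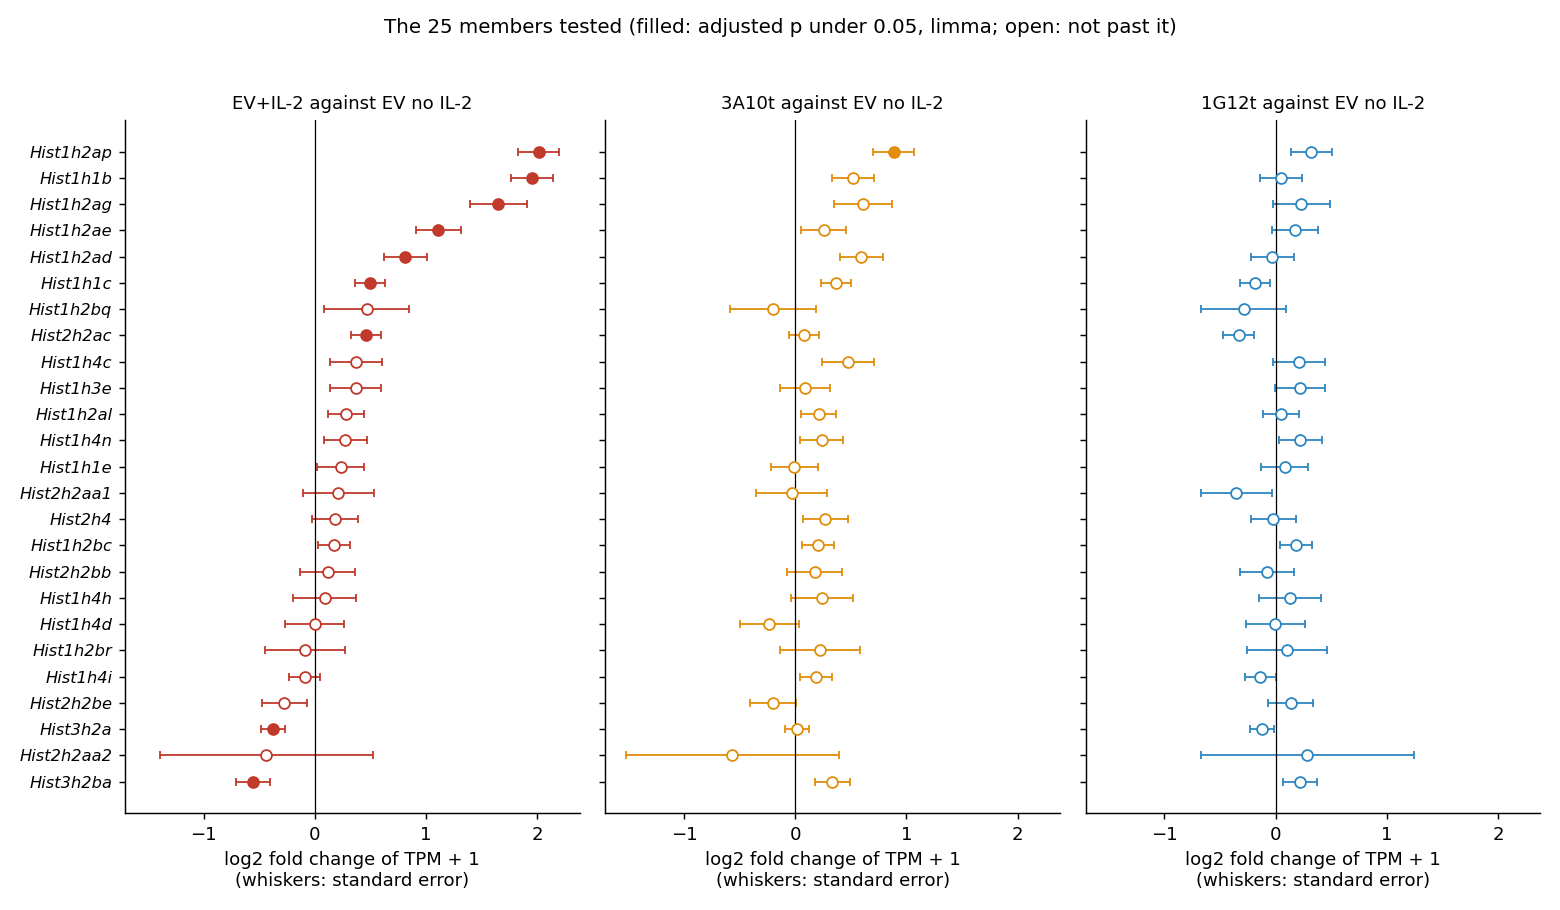
Log2 fold changes of TPM + 1 (x axis, whiskers ± SE) of the 25 members tested (y axis) in EV+IL-2, 3A10t and 1G12t cells, each against EV no IL-2, with filled points for an adjusted p under 0.05 (limma). The EV+IL-2 panel holds 9 filled points, from −0.56 for Hist3h2ba to 2.01 for Hist1h2ap, the 3A10t panel 1 and the 1G12t panel 0.

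Other genes of the histone pathway were taken from lists. The genes listed as replication-independent variants ranged widely in level, and 7 of the 11 had a higher mean than any clustered gene in EV no IL-2. H3f3b, a gene for H3.3, had a mean of 1485 TPM in EV no IL-2, the H3.3 gene H3f3a 678, and H2afz, the gene for H2A.Z, 557. In EV+IL-2 against EV no IL-2, 4 of the 9 variants tested rose and 0 fell (limma), where 8.17% of all genes tested rose and 5.13% fell. H2afx, the gene for the H2A.X of DNA damage signalling, rose by 0.83 (SE 0.13, adjusted p = 0.0018) and H2afz by 0.61 (SE 0.11, adjusted p = 0.0043), with H2afy (macroH2A) and the centromeric Cenpa. H3f3a and H3f3b, with means of 692 and 1327 TPM in EV+IL-2, did not pass. No variant passed the test in 3A10t cells or in 1G12t cells (limma, against EV no IL-2), with 1 and 0 at an unadjusted p under 0.05. Among all genes tested, 26.0% and 7.04% were under that unadjusted level. Of all genes 0.452% rose and 1.60% fell in 3A10t, and 0.0133% and 0.00665% in 1G12t, so 0 of 9 is near those shares.

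Among all genes tested 8.17% rose in EV+IL-2 and 5.13% fell, as given above. Of the genes for transcription and 3′ end processing of histone mRNAs, 1 of 10 tested rose in EV+IL-2 and 0 fell. It was Slbp, the protein that binds the stem-loop, at 224 TPM in EV no IL-2 cells and 295 in EV+IL-2 cells (log2 fold change 0.39, SE 0.10, limma, adjusted p = 0.0201). Slbp lost this call when replicate 1 or 3 of EV no IL-2 or replicate 1 or 2 of EV+IL-2 was left out, with a highest adjusted p of 0.0874. Npat, the coactivator of histone gene transcription, was at 12.8 and 12.1 TPM in those groups and at 11.7 in 1G12t, and in 3A10t it was at 7.27, lower than with soluble IL-2 (by a log2 fold change of −0.69, SE 0.18, limma, adjusted p = 0.0178), a call lost without EV+IL-2 replicate 1 or 3 and without 3A10t replicate 2 or 3 (highest adjusted p 0.0767). Against EV no IL-2, where 1.60% of all genes tested were lower in 3A10t, 1 gene of this list was lower. It was the cleavage factor gene Cstf2 (log2 fold change −0.51, SE 0.09, limma, adjusted p = 0.0275). Of the 4 genes of histone mRNA decay, 1 was lower, Upf1 (−1.30, SE 0.20, adjusted p = 0.0193), a helicase of RNA decay that was at 13.4, 14.3 and 11.5 TPM in EV no IL-2 cells and at 6.16, 3.01 and 5.42 in 3A10t. Both calls were lost without any of EV no IL-2 replicates 1, 2 and 3 or without 3A10t replicate 3, that of Cstf2 also without 3A10t replicate 2, with a highest adjusted p of 0.2588 for each.

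Histone chaperones hand new histones to DNA. Of 19 tested, 6 rose in EV+IL-2 and 0 fell, where 8.17% of all genes tested rose and 5.13% fell. Among the 6, Asf1b, which carries new H3 and H4, rose by 2.28 (SE 0.18, adjusted p = 1.7e-05) and Chaf1a, of the CAF-1 complex, by 1.65 (SE 0.11, adjusted p = 6.7e-06) on the log2 scale (limma). In the S phase list 16 of 20 rose and 0 fell, against the same shares of all genes. Rrm2, of the reductase that makes deoxynucleotides, rose by 2.80 (SE 0.18) and Ccna2 (cyclin A) by 3.43 (SE 0.20) on the same scale. In 3A10t against EV no IL-2, 0 of the 19 chaperone genes and 1 of the 20 S phase genes, Gins2 of the replication helicase, passed (limma), with 7 and 8 at an unadjusted p under 0.05, to be read against the 26.0% of all genes given above. Gins2 rose by 0.54 (SE 0.12, adjusted p just under the threshold), a call that 3 of 17 alternatives kept. In 1G12t against EV no IL-2, 0 genes passed in any of the 5 lists (limma), with 0, 2, 1, 0 and 1 at an unadjusted p under 0.05 in the order given here. Among all genes tested 7.04% were under that unadjusted level, and 0.0133% passed as higher and 0.00665% as lower. In 3A10t against EV+IL-2, 19 of 20 S phase genes and 10 of 19 chaperone genes were lower and none higher (limma). Among all genes tested, 13.0% were lower and 10.3% higher in that comparison. In 3A10t against 1G12t the lists gave 6 calls (limma), where 1.30% of all genes tested were higher and 2.96% lower. Casp8ap2, a regulator of histone gene transcription (0.50, SE 0.10, adjusted p = 0.0322), and the S phase genes Pcna (0.47, SE 0.10, adjusted p = 0.0349) and Cdt1 (0.40, SE 0.10, adjusted p = 0.0497) were higher on the log2 scale. Sympk, of the cleavage complex (−0.35, SE 0.09, adjusted p = 0.0489), Upf1 (−1.26, SE 0.20, adjusted p = 0.0176) and Cabin1, of the HIRA complex (−0.37, SE 0.08, adjusted p = 0.0349), were lower, and no variant passed. All 6 calls were lost without 1G12t replicate 3 or 3A10t replicate 3. All but Pcna were lost without 1G12t replicate 1, and all but Upf1 without 1G12t replicate 2 or 3A10t replicate 2. The highest adjusted p over the alternatives was 0.2808 for each.

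**Figure D5:**
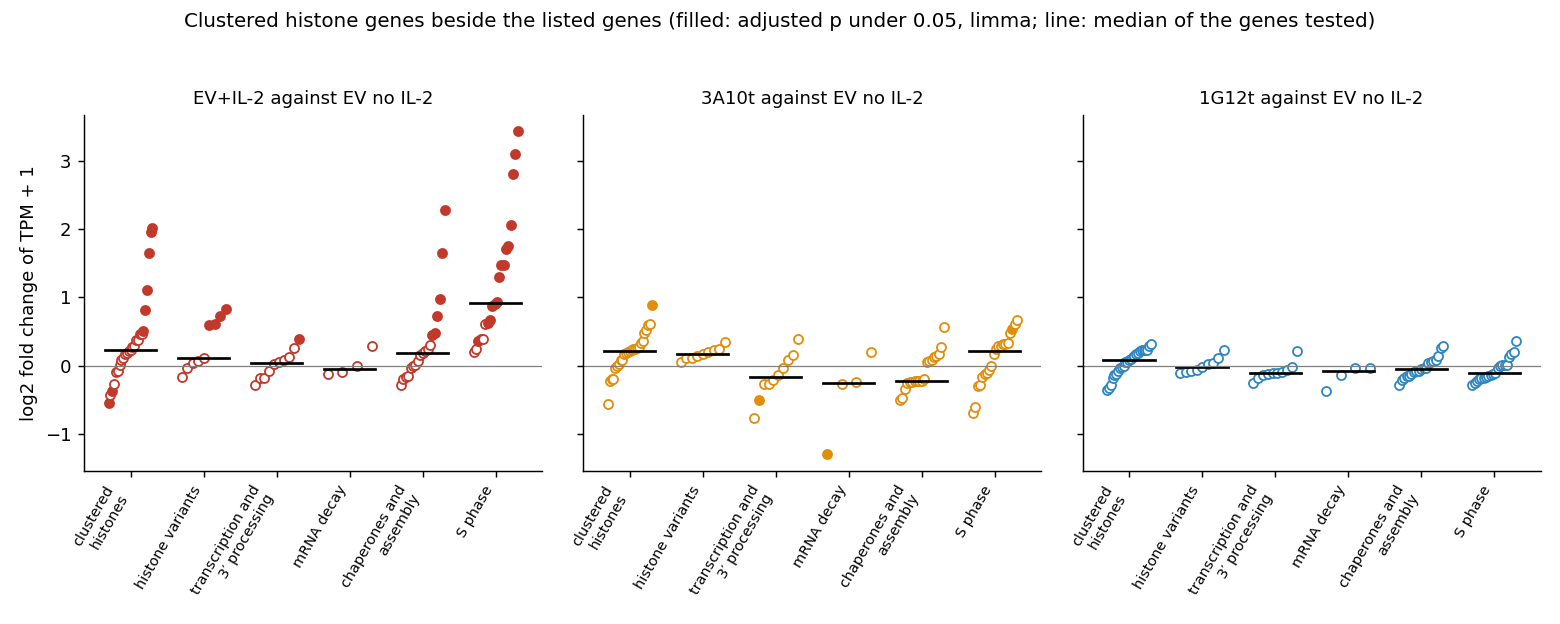
Log2 fold changes of TPM + 1 (y axis) of the clustered histone genes and of the genes of 5 lists (x axis) in EV+IL-2, 3A10t and 1G12t cells, each against EV no IL-2, with a point for each gene tested, filled for an adjusted p under 0.05 (limma), and a line at the median. In EV+IL-2 the medians were 0.23 for the clustered genes and 0.92 for the S phase list, and in 1G12t no point is filled.

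The labelled cell type was checked on markers. The Treg genes Foxp3, Il2ra, Ikzf2, Ctla4 and Cd4 summed to 1212 to 1856 TPM in the 12 libraries. The 4 B cell markers summed to 14.2 to 27.2 TPM, the 5 myeloid markers to 441.5 to 764, of which Cst3, a gene that many cell types express, made up 439.6 to 762 and the other 4 summed to 0.292 to 3.04 TPM, and the 2 CD8 T cell markers to 3.45 to 6.51. The 4 erythroid markers summed to 23.1 to 36.5 TPM in EV+IL-2 and to 0.855 to 3.02 in the other 9 libraries, with Hba-a1 and Hba-a2 called higher in EV+IL-2 and 1 of the 4 at 0 in all libraries of that group. The erythroid markers and the S phase genes were thus high in EV+IL-2, where 7 clustered histone genes rose, and their part in the result was not tested.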

How the data were processed

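RNA of 12 libraries, 3 in each of 4 groups, was analysed, with groups and replicate numbers from the labels. The deposited values are TPM of 55228 symbols. The authors made them by trimming reads with cutadapt 1.18, aligning them to mm10 with STAR 2.5.3 and estimating expression with RSEM 1.3.0 and a GENCODE annotation. The authors' DESeq2 1.26 test of counts was not used here. Reads were 50 bases long and paired. TPM keep no depth, so no counting interval is given.

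TPM were divided by median-of-ratios factors (0.854 to 1.09), and the 15043 genes with a mean of 1 TPM or more were tested with limma 3.58.1 in R 4.3.3 (lmFit, then eBayes with its trend option) on log2(TPM + 1), with all 12 libraries, 1 mean per group and no block. Fold changes are on that scale, which understates the change of low genes. A call is a Benjamini-Hochberg adjusted p under 0.05 in 1 of 5 comparisons. The code was tested on simulated data. Python 3.11.15 and matplotlib 3.10.9 were used.

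The replicate number marks a shared sort in the labels. Over 18 pairs of libraries with the same number, deviations from the group means had a mean correlation of 0.041, from −0.105 to 0.155, with 3 over 0.1, and pairs with different numbers had a mean of −0.02.

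Positions, gene models and shared windows are from GENCODE M21 on GRCm38, which may differ in detail from the authors' annotation, and start regions are from RefSeq. Of the 69 members, 69 were matched to GENCODE and to RefSeq genes. Named are the members with a mean of at least 5 TPM, those called in any comparison, Slbp, Npat, H2afz, H2afx, H3f3a and H3f3b. Other listed genes that passed in some comparison could be named, and a part of them is. Hist1h4i, Hist1h3e, Hist1h4m, Hist2h3c1, Hist1h2aa, Hist1h2af, Hist1h2ao, Hist1h2aj and Hist4h4 were named after their values were seen. The members and lists were chosen with earlier results of these data known. Alternatives were other pseudocounts, filters, scalings, a length correction, the replicate block, only the 6 libraries compared, eBayes without a trend, the authors' threshold and each library left out.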

Additional observations from a re-analysis of the deposited data

How the results depend on the processing

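In EV+IL-2 against EV no IL-2, Hist1h2ap, Hist1h1b and Hist1h2ae kept direction and call in each alternative that tested them. The count of 9 members past the threshold became 2 with a mean TPM of at least 5, where 8 members were tested, and 4 to 7 with a library left out. In 3A10t against EV no IL-2 the count of 1 became 0 without a filter, with only the 6 libraries compared and without a trend, and 0 to 2 with a library left out. In 3A10t against 1G12t the count of 1 became 2 by the authors' threshold, 0 with a pseudocount of 5, no filter, unscaled TPM, quantile normalization, the 6 libraries alone, no trend and the length correction with or without the block, and 0 to 3 with a library left out. In 3A10t against EV+IL-2 the count of 6 became 3 with a mean TPM of at least 5, 9 without a filter, 7 with unscaled TPM or the length correction, and 4 to 6 with a library left out. With the replicate block, the counts were 9, 1, 0, 1 and 6 in the 5 comparisons, and the pairing changed no call of a member. The cause of the lost calls was not tested.

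With a mean TPM of at least 5 only 1 H1 gene and 2 H2B genes were left in the sums, which were then 33.0 and 15.5 TPM (H1 and H2B) in EV no IL-2 cells, 47.0 and 13.8 in EV+IL-2 cells, 29.1 and 16.4 in 1G12t cells and 42.9 and 19.2 in 3A10t cells. No H3 or H4 gene was left. Summed H2A of 1G12t was 171 in TPM as deposited. Hist1h1b in 1G12t against EV no IL-2, which was not called, turned to a log2 fold change of −0.183 with quantile normalization. This was the lowest value over its 16 alternatives. With a library left out, its log2 fold change ranged from −0.087 to 0.222, and the values below 0 were −0.065 and −0.087. Without scaling, the median over all genes tested moved, on the log2 scale, by −0.12 in 3A10t against EV no IL-2 and by −0.16 in 3A10t against 1G12t.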
